A study of Mus musculus with 8 samples.

Results

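The mitotic spindle, kinetochore and checkpoint genes described here are 50 genes chosen by symbol, out of 18193 genes with at least 1 probe annotated to a single symbol. They were read on Affymetrix mouse arrays in 8 mammary tumour samples of female mice of the transgenic line FVB/N-Tg(MMTV-PyVT)634Mul/J. In these mice the mouse mammary tumour virus promoter drives the polyoma virus middle T antigen, an oncoprotein that recruits Src family kinases, mainly in the mammary epithelium, so all 8 samples carry the same transgene. Of these, 4 came from mice given SKI-606 (bosutinib), a small molecule that inhibits the tyrosine kinases Src and Abl, by oral gavage at 100 mg/kg in 0.5% methocellulose with 0.4% Tween 80, and 4 from mice given vehicle. The groups are called SKI606 and vehicle below, with replicates numbered as in the labels. The age of the mice, the length of treatment, the number of tumours per sample and whether each sample is a separate animal are not stated in the labels, so the p-values cover only the scatter among these samples, which may be partly technical. The study title names tumour differentiation as its question.

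Mitosis separates copied chromosomes into a pair of daughter cells. Condensins compact the chromosomes, microtubules of the spindle attach to them at kinetochores built on centromeres, and the spindle checkpoint holds the anaphase-promoting complex inactive until every kinetochore is attached. Most of these genes are transcribed late in the cell cycle and are nearly silent in resting cells, so their RNA in a tissue is often read as a measure of dividing cells. In whole tumour RNA, fewer dividing cells and less RNA per dividing cell cannot be told apart.

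The markers of the labelled tissue were bright in every sample. Krt8 and Krt18, the keratins of luminal epithelium, and Epcam and Cdh1, epithelial adhesion genes, ranked above 98.4% of probes in each sample, and the median of 10 luminal markers stayed within -0.12 to 0.15 of its vehicle mean on the log2 scale. Over all probes, the main axis of variation (principal component 1, 34.0% of the variance) placed SKI606 samples 1 and 4 far from the rest, with scores of 81.1 and 72.4 beside -38.5 to -14.8. Component 2 placed vehicle sample 3 far from the rest, with a score of -81.0 beside -2.29 to 35.2. These 3 samples had the highest signals of squamous and hair keratins.

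All 50 mitotic genes had a lower mean in SKI606 than in vehicle tumours with quantile normalization. Their median log2 fold change was -0.52, with a range from -1.15 to -0.09. With arrays scaled to a common median 47 of 50 lay below 0, and with the ratios as deposited 48. Values are on the scale of log2(normalized signal + 16), SKI606 minus vehicle, which understates changes of dim genes. Among all genes 52.9% lay below 0, with a median of -0.02. With the common median 35.9% of all genes lay below 0, and with the deposited ratios 35.9%. No member passed the test, since limma called 0 of 50 members and 0% of all 45037 probes at an adjusted p under 0.05, and the adjusted p of the members lay between 0.558 and 0.936. At an unadjusted p under 0.05, 17 of the 50 (34.0%) were lower and 0 were higher, against 4.31% and 6.07% of all genes. That number was 1 with the common median and 0 with the deposited ratios. Both of these scale each array by its median, so they are not separate checks. Over all probes, in either direction, 3771 were at an unadjusted p under 0.05 with quantile normalization. With the common median they numbered 4147, and with the deposited ratios 3190. The median of the members was -0.28 with the common median and -0.33 with a pseudocount of 64 in place of 16. By the brightest probe of each gene, the 4 SKI606 values lay below all 4 vehicle values in 2 members, Cdc20 and Racgap1, and above them in 0. Over all genes the shares were 2.03% and 2.39%, so the number without overlap was near the background. That number was 0 with the common median or the deposited ratios and 6 with the mean of all probes of a gene. It was 13 without SKI606 sample 2, 11 without SKI606 sample 3, and 6, 5 and 9 without vehicle sample 1, 2 or 4. Shares of all genes are not given for these settings, and groups of fewer samples separate more easily. These numbers therefore cannot be set against the shares from all samples.

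**Figure D1:**
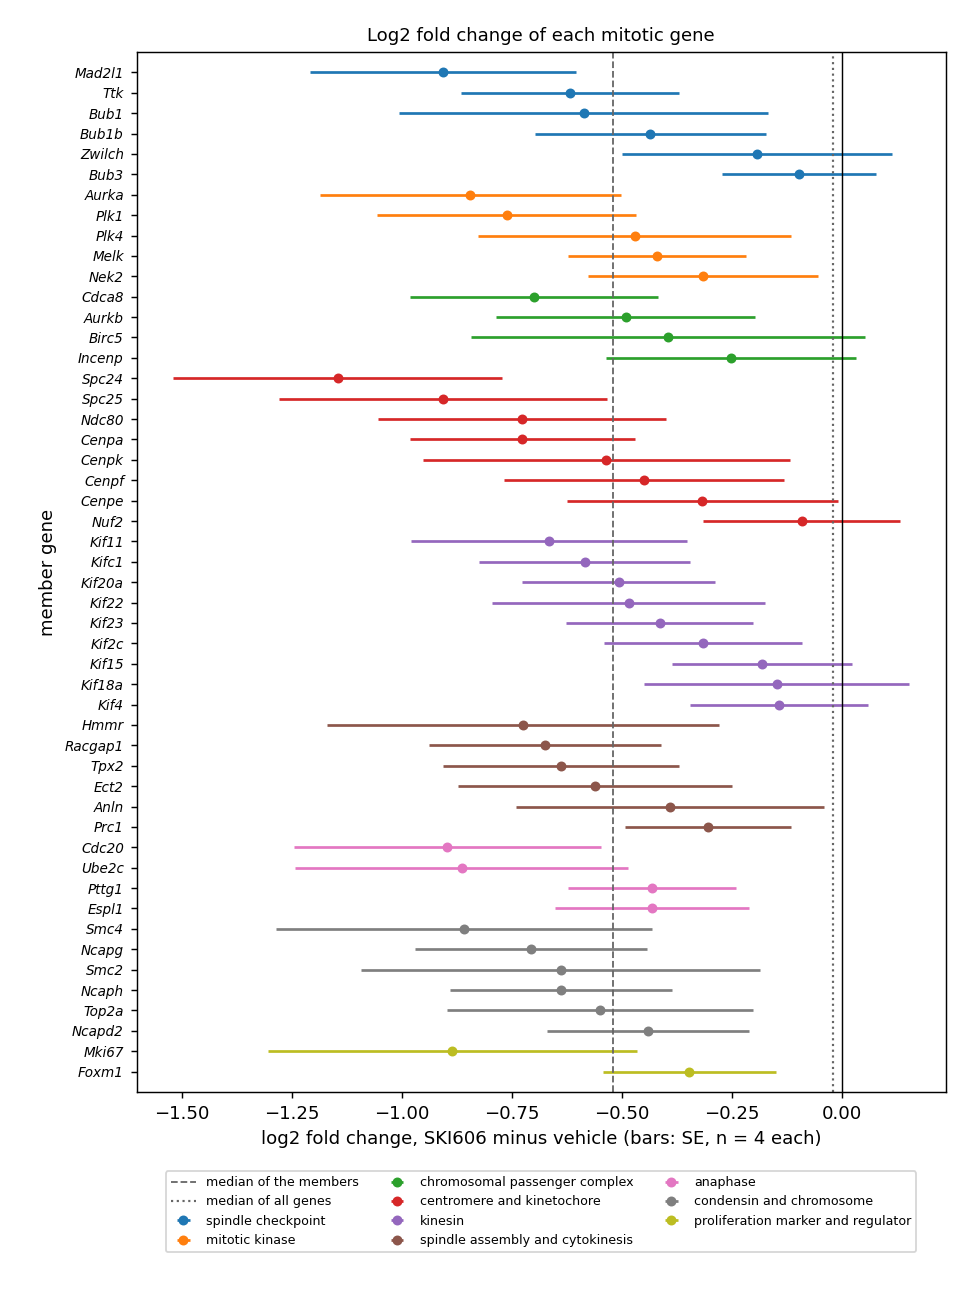
Log2 fold change of each of the 50 mitotic genes (SKI606 minus vehicle, points) with its SE (bars, n = 4 each), coloured by role. The dashed line is the median of the members, -0.52, and the dotted line that of all genes, -0.02. Every point lies left of 0 with quantile normalization, as do 52.9% of all genes. With arrays scaled to a common median 47 of 50 lie below 0, against 35.9% of all genes.

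The difference was unequal among the treated tumours. The median deviation of the 50 genes from their vehicle mean was -0.86 in SKI606 sample 1, -0.05 in SKI606 sample 2, -0.20 in SKI606 sample 3 and -0.92 in SKI606 sample 4, against -0.11, 0.09, 0.17 and -0.21 in vehicle samples 1 to 4. SKI606 samples 2 and 3 therefore lay within the vehicle range, and SKI606 samples 1 and 4 well below it. These were the samples with the 2 lowest values in 36 of the 50 genes (72%), against 11.3% of all genes. The lowest of the 8 values was in SKI606 sample 4 for 27 genes, in SKI606 sample 1 for 21 and in vehicle sample 4 for 2. The highest was in vehicle sample 3 for 23, in SKI606 sample 2 for 12 and in vehicle sample 2 for 10.

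Leaving out SKI606 samples 1 and 4, a setting added after the data were seen, left a median of -0.14 with 33 of 50 genes below 0, 0 of them at an unadjusted p under 0.05. The members then ranged from -0.58 for Spc24 to 0.36 for Birc5. Without vehicle sample 3 as well, the median was -0.06 with 32 of 50 below 0. Of all genes 49.2% lay below 0 without SKI606 samples 1 and 4, and 49.4% without vehicle sample 3 as well. Leaving out 1 sample at a time gave medians from -0.74, without SKI606 sample 2, to -0.38, without SKI606 sample 1 or 4. The number of members at an unadjusted p under 0.05 then ranged from 3, without SKI606 sample 1 or vehicle sample 2, to 30, without SKI606 sample 2. It was 5 without SKI606 sample 4, 4 without vehicle sample 3, and 11 without vehicle sample 4. Over all probes, the number at an unadjusted p under 0.05 in either direction moved too. With all samples it was 3771, without SKI606 sample 2 it was 4923, and without SKI606 sample 1 or 4 it was 2730 or 2366. Without vehicle sample 2 it was 3418, and without both SKI606 samples 1 and 4 it was 1770.

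**Figure D2:**
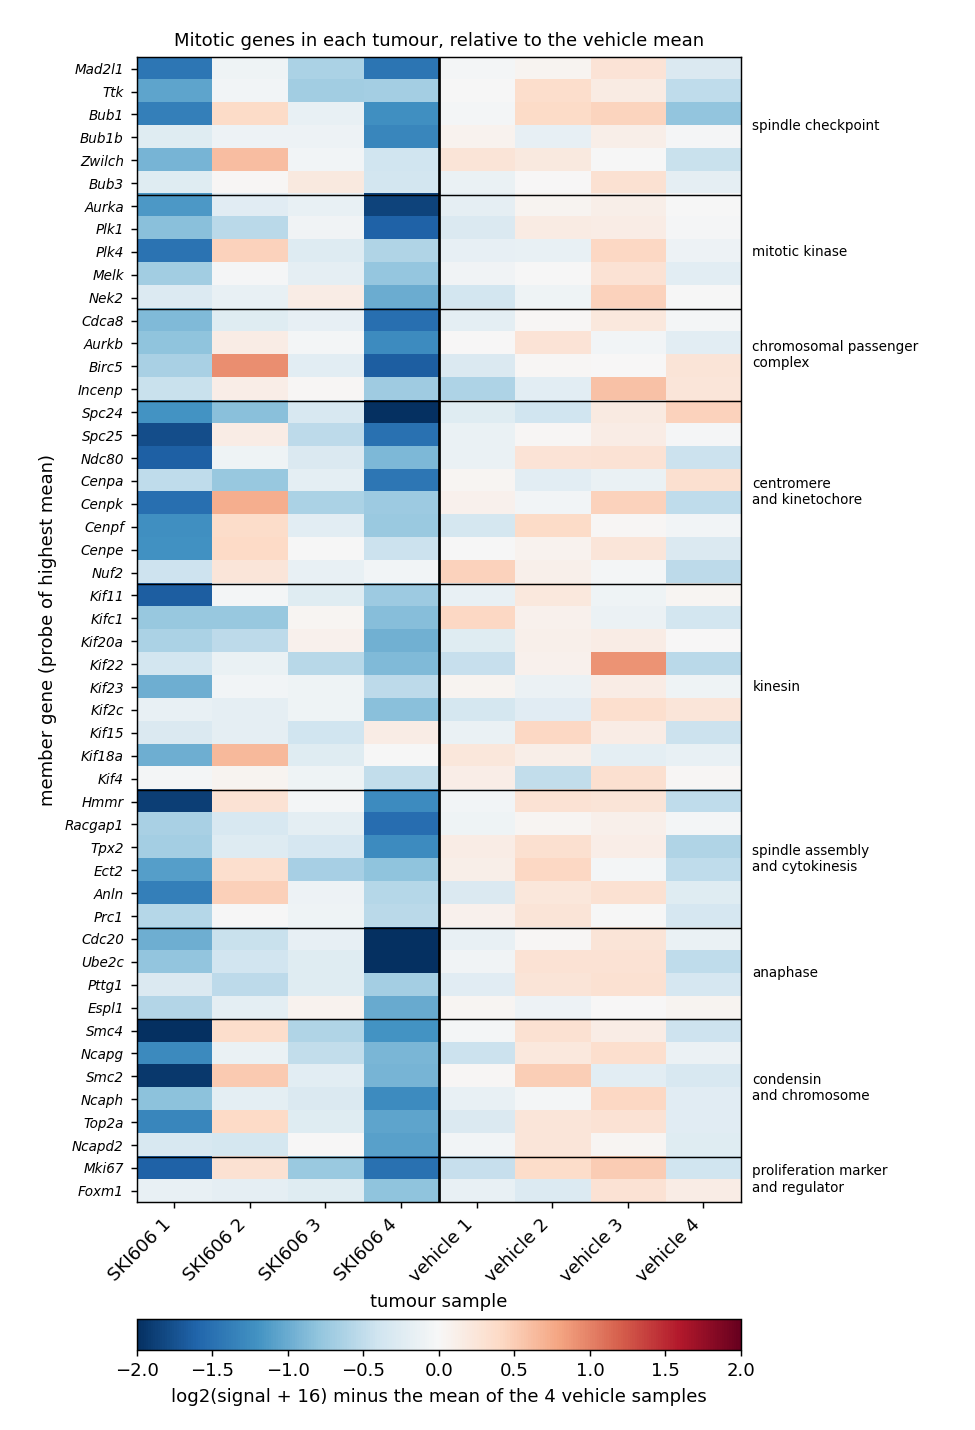
Heat map of the 50 mitotic genes (rows, grouped by role) in the 8 tumour samples (columns), as log2(signal + 16) minus the mean of the 4 vehicle samples. SKI606 samples 1 and 4 are blue in nearly all rows, with medians of -0.86 and -0.92, whereas SKI606 samples 2 and 3 are mostly pale or mixed, at -0.05 and -0.20; colours saturate at -2 and 2.

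The spread within groups differed too. In 44 of the 50 genes (88.0%) the SD over the SKI606 samples was above that over the vehicle samples, as it was in 56.1% of all genes. This was not particular to the members. It held for 91.3% of 23 replication licensing genes, 76.1% of 113 other mitotic genes and 100% of 14 fibroblast markers, lists described below. For 10 luminal and 12 T and NK cell markers the shares were 30% and 25%. The median SD of the members was 0.63 in SKI606 and 0.30 in vehicle samples on the log2 scale, beside 0.30 and 0.27 over all genes. Spc25, a subunit of the Ndc80 complex that binds microtubules, had the widest ratio, with SDs of 0.89 in SKI606 and 0.12 in vehicle samples. Kif22, a chromosome-binding kinesin, had the lowest ratio, at 0.31 and 0.66 on its brightest probe. Its other probes went the other way, with SDs of 0.60 in SKI606 and 0.10 in vehicle samples, and of 0.35 and 0.19. Without SKI606 samples 1 and 4, the SKI606 spread was wider in 24 of 50 genes. This sets an SD over fewer SKI606 samples beside an SD over all vehicle samples. No share over all genes is given for that setting, so the number does not show that the spreads were equal.

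Promoters are shown because the members varied together across samples and genes of this class are known to share promoter elements. In such promoters the cell cycle homology region (CHR) is bound by the MuvB core of the DREAM complex in resting cells and of the B-Myb and FoxM1 complexes in dividing cells, and NF-Y binds CCAAT boxes. RefSeq promoter windows of mouse build GRCm38.p6, from 250 bases before to 50 after the annotated start, were found for 42 of the 50 members, as 47 windows. The CHR was searched as TTTGAA or TTCGAA and the CCAAT box as CCAAT, on both strands. The CHR was present in 34 of the 47 windows (72.3%), against 19.2% of all 32851 windows in the table. A CCAAT box was present in 35 (74.5%), against 37.4%, and both together in 30 (63.8%), against 7.52%. The E2F element, searched as TTTGGCG or TTTCGCG on both strands, was present in 5 (10.6%), against 2.37%. The motifs are different words whose matches may overlap at their ends, windows of the same gene can overlap, and a match of letters is a description, not a bound site. Shown 5′ to 3′ on the strand of each gene, with CHR and CCAAT matches in capitals, are the members without overlap between groups, Cdc20 (chr4:118437294-118437593, minus strand) and Racgap1 (chr15:99651607-99651906, minus strand), the kinase gene Plk1 (chr7:122159185-122159484, plus strand), the checkpoint gene Mad2l1 (chr6:66534971-66535270, plus strand), whose window holds no match, and Bub3 (chr7:131560244-131560543, plus strand), which holds matches and differed little.
Cdc20: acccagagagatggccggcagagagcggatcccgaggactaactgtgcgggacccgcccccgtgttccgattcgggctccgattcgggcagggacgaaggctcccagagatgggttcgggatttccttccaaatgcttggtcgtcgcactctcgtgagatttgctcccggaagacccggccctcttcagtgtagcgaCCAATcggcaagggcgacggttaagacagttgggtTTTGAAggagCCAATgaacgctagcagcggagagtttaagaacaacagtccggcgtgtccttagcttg
Racgap1: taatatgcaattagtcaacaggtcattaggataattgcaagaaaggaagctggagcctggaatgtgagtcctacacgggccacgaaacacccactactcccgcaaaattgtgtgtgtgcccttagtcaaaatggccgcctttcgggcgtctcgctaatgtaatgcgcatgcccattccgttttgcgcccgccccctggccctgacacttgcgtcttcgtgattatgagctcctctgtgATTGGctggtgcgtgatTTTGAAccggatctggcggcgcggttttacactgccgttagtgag
Plk1: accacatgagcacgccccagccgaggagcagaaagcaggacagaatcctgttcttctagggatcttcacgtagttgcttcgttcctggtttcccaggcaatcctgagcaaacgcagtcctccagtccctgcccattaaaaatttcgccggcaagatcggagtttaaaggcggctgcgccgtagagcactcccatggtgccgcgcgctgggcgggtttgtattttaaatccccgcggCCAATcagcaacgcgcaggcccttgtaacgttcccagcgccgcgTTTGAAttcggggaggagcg
Mad2l1: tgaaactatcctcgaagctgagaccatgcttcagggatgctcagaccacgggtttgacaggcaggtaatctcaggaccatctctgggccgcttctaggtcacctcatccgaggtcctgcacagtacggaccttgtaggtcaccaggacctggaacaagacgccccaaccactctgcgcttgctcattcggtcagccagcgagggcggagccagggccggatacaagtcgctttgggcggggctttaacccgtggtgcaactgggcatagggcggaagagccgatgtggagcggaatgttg
Bub3: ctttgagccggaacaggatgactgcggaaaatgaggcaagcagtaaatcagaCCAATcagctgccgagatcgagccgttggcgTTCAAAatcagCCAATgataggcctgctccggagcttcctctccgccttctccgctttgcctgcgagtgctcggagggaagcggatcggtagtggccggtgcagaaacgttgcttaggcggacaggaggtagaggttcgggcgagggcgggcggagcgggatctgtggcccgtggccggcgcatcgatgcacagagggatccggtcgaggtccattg

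Checkpoint genes had log2 fold changes from -0.91 to -0.10. Mad2l1, whose product inhibits Cdc20 until chromosomes are attached, had normalized signals of 67.6, 199, 131 and 67.4 in SKI606 samples 1 to 4, against 207, 221, 259.9 and 171 in vehicle samples 1 to 4. SKI606 samples 1, 3 and 4 lay below every vehicle sample and SKI606 sample 2 within them, and the log2 fold change was -0.91 ± 0.30 (SE, n = 4 each; adjusted p = 0.558, limma). Ttk, the Mps1 kinase that starts checkpoint signalling, was dim, at 15.5, 47.0, 24.1 and 24.6 in SKI606 samples, against 48.8, 66.8, 57.0 and 29.9 in vehicle samples. Its difference was -0.62 ± 0.25, and SKI606 sample 2 again lay within the vehicle range. Bub3, a scaffold of the checkpoint complex that binds kinetochores, had 961, 1159, 1314 and 884 in SKI606 samples, against 1042, 1145, 1414 and 1007 in vehicle samples. The groups overlapped widely at -0.10 ± 0.17, with a 95% confidence interval from -0.49 to 0.29. Bub3, the kinesin gene Kif4 and Zwilch lay above 0, at 0.12, 0.10 and 0.003, when arrays were scaled to a common median in place of quantile normalization. The median of all genes in that setting was 0.10. The kinase gene Bub1 stood at -0.59 ± 0.42, its relative Bub1b (BubR1) at -0.43 ± 0.26, and Zwilch, of the complex that brings dynein to kinetochores, at -0.19 ± 0.31.

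Mitotic kinases outside the passenger complex ranged from -0.84 to -0.31. Plk1, which acts from mitotic entry to cytokinesis, had 167, 209, 295 and 90.0 in SKI606 samples, against 249.5, 349.8, 344 and 304 in vehicle samples. Only SKI606 sample 3 reached the vehicle range, and the difference was -0.76 ± 0.29 (adjusted p = 0.571, limma). Aurka, the centrosomal Aurora kinase, had 132, 263, 279 and 75.1 in SKI606 samples, against 275, 325, 340.5 and 310.1 in vehicle samples. Its vehicle values were tight and SKI606 samples 1 and 4 lay far below them, with a difference of -0.84 ± 0.34. Nek2, which separates centrosomes, had 106, 118, 149 and 58.8 in SKI606 samples, against 99.0, 123, 189 and 131 in vehicle samples. Only SKI606 sample 4 was below the vehicle range, at -0.31 ± 0.26. Plk4, which starts centriole duplication, stood at -0.47 ± 0.36 and the kinase gene Melk at -0.42 ± 0.20.

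The chromosomal passenger complex corrects faulty attachments and then acts in cytokinesis. Its borealin subunit gene Cdca8 had 234, 377, 397 and 147 in SKI606 samples, against 388, 453, 519 and 435 in vehicle samples, a difference of -0.70 ± 0.28 (adjusted p = 0.574, limma). Only SKI606 sample 3 reached above the lowest vehicle sample. The dimmer Cdca8 probes stood at -0.75 ± 0.25 and -0.61 ± 0.25, without overlap between groups. Aurkb, the kinase of the complex, had 117, 242, 211 and 82.1 in SKI606 samples, against 218, 266, 209 and 185 in vehicle samples. SKI606 samples 2 and 3 lay among the vehicle values, and the difference was -0.49 ± 0.29. The dimmer Aurkb probe stood at -0.72 ± 0.27, without overlap between groups. Birc5, which encodes survivin, had 522, 1584, 707 and 252 in SKI606 samples, against 671, 835, 831 and 992 in vehicle samples. SKI606 sample 2 was the highest of all 8 and SKI606 sample 4 the lowest, so that -0.40 ± 0.45 describes a wide scatter, and without SKI606 sample 4 the value was 0.02. Incenp, the scaffold, stood at -0.25 ± 0.28.

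Centromere and kinetochore genes had a median of -0.63 over 8 genes and included both ends of the range. Spc24, a subunit of the Ndc80 complex, had 114, 149.6, 222 and 47.0 in SKI606 samples, against 233, 209, 320.2 and 391 in vehicle samples. SKI606 sample 3 alone reached the vehicle range, and the log2 fold change was -1.15 ± 0.37 (adjusted p = 0.558, limma). Cenpa, the histone H3 variant that marks centromeres, had 375, 315, 473 and 190.1 in SKI606 samples, against 556, 468, 492 and 678 in vehicle samples. SKI606 sample 3 was just above the lowest vehicle value, and the difference was -0.73 ± 0.26. Nuf2, also of the Ndc80 complex, was dim at 15.5, 34.0, 22.0 and 24.6 in SKI606 samples, against 41.8, 28.9, 25.0 and 13.4 in vehicle samples. Its groups overlapped fully, at -0.09 ± 0.22. The other Ndc80 complex genes, Spc25 and Ndc80, stood at -0.91 ± 0.37 and -0.73 ± 0.33, the inner kinetochore gene Cenpk at -0.53 ± 0.42, Cenpf at -0.45 ± 0.32 and the kinetochore motor gene Cenpe at -0.32 ± 0.31.

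Kinesins, the microtubule motors, had a median of -0.41 over 9 genes. Kifc1, a minus-end motor that focuses spindle poles, had 36.4, 36.9, 75.4 and 33.1 in SKI606 samples, against 102, 78.6, 65.8 and 52.8 in vehicle samples. SKI606 samples 1, 2 and 4 lay close together below the vehicle range and SKI606 sample 3 within it, at -0.58 ± 0.24 (adjusted p = 0.580, limma). Kif20a, a motor of the central spindle, had 60.0, 66.8, 110.1 and 44.6 in SKI606 samples, against 83.6, 110.5, 114 and 103 in vehicle samples. Again SKI606 sample 3 alone reached the vehicle range, at -0.51 ± 0.22. Kif18a, which dampens chromosome movements at the metaphase plate, was near the floor, with 1.12, 36.9, 12.4 and 17.5 in SKI606 samples, against 23.6, 20.5, 13.4 and 14.5 in vehicle samples. No difference was detectable at these signals (-0.15 ± 0.30), and SKI606 samples held both the highest and the lowest value. Kif11, the Eg5 motor that pushes spindle poles apart, stood at -0.66 ± 0.31, Kif22 at -0.48 ± 0.31, Kif23 of the centralspindlin complex at -0.41 ± 0.21, and the microtubule depolymerase gene Kif2c at -0.31 ± 0.22. The dimmer Kif22 probes stood at -0.82 ± 0.27 and -0.47 ± 0.19, without overlap between groups. Kif15 and the chromokinesin gene Kif4 stood at -0.18 ± 0.20 and -0.14 ± 0.20, and Kif15 was dim in every sample.

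Of the genes of spindle assembly and cytokinesis, Racgap1, the GTPase-activating subunit of centralspindlin, had no overlap between groups on its brightest probe. It had 136, 176, 192 and 67.4 in SKI606 samples, against 209.8, 229, 241 and 216 in vehicle samples. Its vehicle values were close together, and the difference was -0.67 ± 0.26 (adjusted p = 0.573, limma). On another Racgap1 probe, with a mean signal of 111, the difference was -0.35 ± 0.19 and the groups overlapped. There SKI606 sample 3 had 129, against 112 to 142 in vehicle samples. Tpx2, which activates Aurora A on the spindle, had 98.2, 137, 129 and 60.6 in SKI606 samples, against 187, 214, 186 and 105 in vehicle samples. Vehicle sample 4 lay among the SKI606 values, and the difference was -0.64 ± 0.27. Anln, which encodes the contractile ring protein anillin, had 44.2, 200, 129 and 89.0 in SKI606 samples, against 112, 166, 175 and 116 in vehicle samples. SKI606 sample 2 was the highest of all 8, so the groups overlapped at -0.39 ± 0.35. Hmmr, a spindle and hyaluronan receptor gene, stood at -0.72 ± 0.45, Ect2, the RhoA exchange factor of cytokinesis, at -0.56 ± 0.31, and Prc1, which bundles midzone microtubules, at -0.30 ± 0.19.

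Genes that carry cells through anaphase included the other member without overlap. Cdc20, the activator of the anaphase-promoting complex and the target of the checkpoint, had 1032, 1507, 1843 and 503 in SKI606 samples, against 1863, 2083, 2454 and 1881 in vehicle samples. SKI606 sample 3 lay only just below vehicle sample 1, SKI606 sample 4 was far below, and the difference was -0.90 ± 0.35 (adjusted p = 0.573, limma). All 3 probes of Cdc20 lay between -1.01 and -0.85, and on the dimmest of them the groups overlapped. Ube2c, the ubiquitin-conjugating enzyme of that complex, had 768, 1027, 1131 and 309.9 in SKI606 samples, against 1275, 1630.2, 1645 and 933 in vehicle samples. SKI606 samples 2 and 3 lay above vehicle sample 4, and the difference was -0.86 ± 0.38. Espl1, which encodes separase, the protease that cuts cohesin, had 68.6, 95.2, 118 and 47.0 in SKI606 samples, against 115, 103, 112 and 116 in vehicle samples. The vehicle values were within a narrow band that SKI606 sample 3 exceeded, at -0.43 ± 0.22. Pttg1, which encodes securin, the inhibitor of separase, stood at -0.43 ± 0.19. Its dimmer probes stood at -0.56 ± 0.18, without overlap between groups, and at 0.20 ± 0.23, with overlap.

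**Figure D3:**
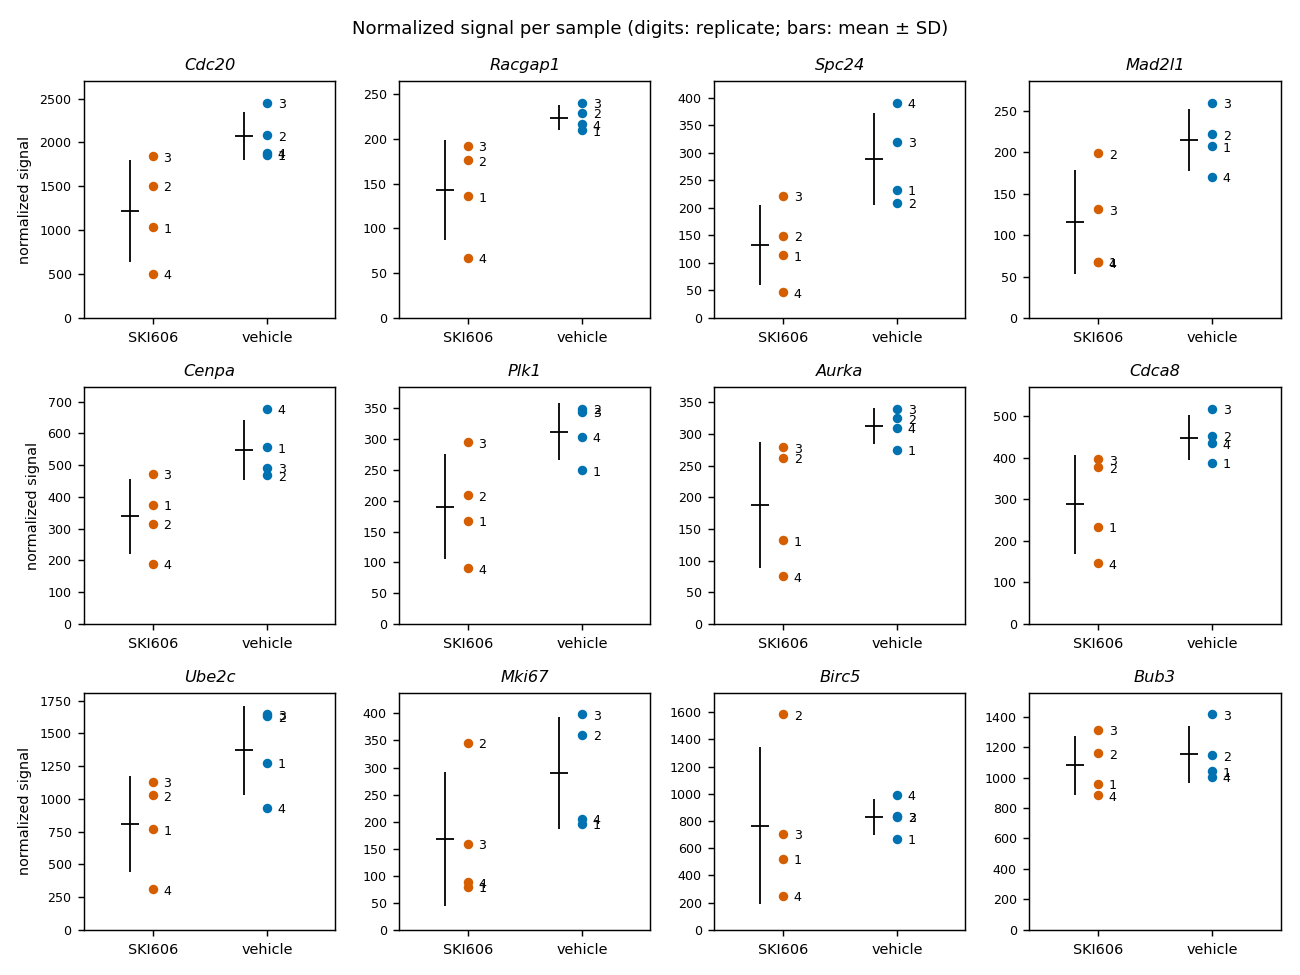
Normalized signal (linear, axes from 0) of 12 members in each SKI606 (left, orange) and vehicle (right, blue) sample; digits give the replicate, and black bars the mean ± SD (n = 4 each). SKI606 sample 4 is the lowest SKI606 sample in each gene shown except Mki67, where it has 88.1 and sample 1 has 79.4; Birc5 and Bub3 show wide overlap.

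Condensin and chromosome genes ranged from -0.86 to -0.44. Ncapg, a subunit of condensin I, had 14.5, 50.9, 36.1 and 23.0 in SKI606 samples, against 38.9, 68.9, 77.4 and 51.6 in vehicle samples. SKI606 sample 2 alone reached the vehicle range, at -0.71 ± 0.26 (adjusted p = 0.565, limma). Ncaph, the subunit that closes the condensin I ring, had 201, 319.9, 296 and 145 in SKI606 samples, against 331, 357, 493 and 309 in vehicle samples. SKI606 sample 2 was just above vehicle sample 4, and the difference was -0.64 ± 0.25. On the dimmer Ncaph probe it was -0.98 ± 0.28, without overlap between groups. Smc2, a core ATPase of condensin, had 17.5, 167, 94.9 and 51.4 in SKI606 samples, against 115, 165, 94.9 and 86.9 in vehicle samples. The SKI606 values spanned a wider range than the vehicle values at both ends, at -0.64 ± 0.45. Its partner Smc4 stood at -0.86 ± 0.43, the topoisomerase gene Top2a at -0.55 ± 0.35 and Ncapd2 at -0.44 ± 0.23. Mki67, the gene of the Ki-67 proliferation marker, had 79.4, 346, 159.5 and 88.1 in SKI606 samples, against 196, 360.0, 398 and 205 in vehicle samples. SKI606 samples 1, 3 and 4 lay below all vehicle samples, at -0.88 ± 0.42 (adjusted p = 0.611, limma). Foxm1, a transcription factor that drives many genes of mitosis, had 70.1, 68.5, 65.1 and 38.9 in SKI606 samples, against 70.1, 63.2, 101 and 90.0 in vehicle samples. SKI606 samples 1 to 3 lay among the lower vehicle values, at -0.35 ± 0.20.

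SKI606 samples 1 and 4 were low in mostly the same members, with 40 and 45 of the 50 among their 2 lowest values, but the size differed by gene. All 4 anaphase genes and all 4 passenger complex genes had their lowest value in SKI606 sample 4, with median log2 differences, sample 1 minus sample 4, of 0.72 and 0.53. Condensin and chromosome genes were lower in SKI606 sample 1 than in SKI606 sample 4 in 4 of 6 cases, and centromere and kinetochore genes in 6 of 8. The ends were Smc2, at -1.01, and Ube2c, at 1.27, sample 1 minus sample 4. Over all 50 genes the median of this difference was 0.08, with 23 lower in sample 1. With 1 array each, these differences, chosen after their values were seen, have no replicate check. The signal of Actb at its 3′ end over that at its 5′ end, which grows as RNA degrades, was 1.66, 2.08, 3.35 and 2.62 in SKI606 samples 1 to 4, and 1.77 to 3.83 in vehicle samples, and its part in these results was not tested.

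Probes of the same gene mostly pointed the same way. The 50 genes had 118 probes with a single symbol, of which 103 (87.3%) lay below 0, against 53.7% of all probes, and 30 were lower at an unadjusted p under 0.05, against 3.79% of all probes. Of 34 genes with several probes, 20 had all below 0 and 14 had probes of both signs. A mean signal under 50 was found in 59 of the 118 probes. Every member probe above 0 was dim, with a mean signal of 22.2 or less, the brightest being that of Pttg1. Spc25 had -0.91 on its brighter probe and 0.16 on the dimmer one, Pttg1 ranged from -0.56 to 0.20, and the 3 probes of Cdca8 lay between -0.75 and -0.61. By brightness of the chosen probe, the median was -0.71 over 16 members with a mean signal of 200 or more, -0.46 over 26 from 50 to under 200, and -0.47 over 8 under 50. All genes in the same classes had medians of -0.06, -0.04 and 0.01.

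Other genes of mitosis, from a list that holds no member, had smaller differences in the same direction. Of 113 measured, 93 (82.3%) lay below 0, against 52.9% of all genes, with a median of -0.29. At an unadjusted p under 0.05, 19 (16.8%) were lower, against 4.31% of all genes, and 0 higher. Over all probes 0 passed in either direction. Groups did not overlap in 9 that were lower and 0 that were higher, against 2.03% and 2.39% of all genes. Those named first below had the smallest unadjusted p of the list. The centromere gene Cenpm had 59.1, 75.4, 84.2 and 38.0 in SKI606 samples, against 102, 94.1, 122 and 118 in vehicle samples, with no overlap (-0.67 ± 0.20, adjusted p = 0.558, limma). The cyclin B2 gene Ccnb2 stood at -0.80 ± 0.25 and the spindle protein gene Ckap2l at -0.57 ± 0.18, likewise without overlap, and Fbxo5 (Emi1), an inhibitor of the anaphase-promoting complex, at -0.66 ± 0.21. The kinetochore genes Zwint and Nsl1 had the largest p, at -0.01 ± 0.17 and -0.01 ± 0.24. In the neighbouring cell cycle lists, 22 of 23 replication licensing genes lay below 0, with a median of -0.46, and 12 of 16 cyclins and cyclin-dependent kinases, with a median of -0.10. These differences between lists were not tested.

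**Figure D4:**
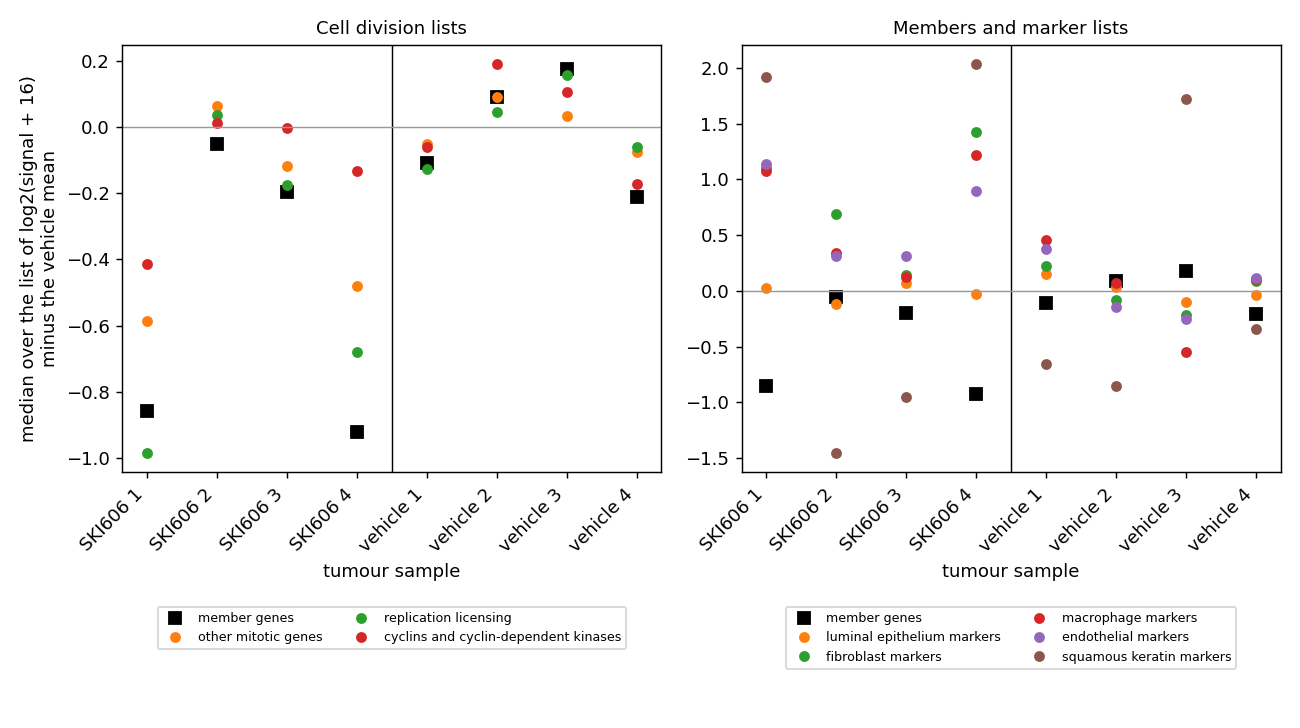
Median over each gene list of log2(signal + 16) minus the vehicle mean, in every sample (left panel, cell division lists; right panel, members and marker lists). In SKI606 samples 1 and 4 the members lie at -0.86 and -0.92, and fibroblast, macrophage and endothelial markers between 0.90 and 1.43; in vehicle sample 3 squamous keratins are high, at 1.72, with the members at 0.17.

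Markers of other cells were high in the same samples, and some also in SKI606 samples 2 and 3. The median deviation of 14 fibroblast markers from the vehicle mean was 1.101, 0.69, 0.14 and 1.43 in SKI606 samples 1 to 4, against 0.22, -0.08, -0.22 and 0.09 in vehicle samples 1 to 4. That of 14 macrophage markers was 1.07, 0.34, 0.13 and 1.22 in SKI606 samples, against 0.46, 0.07, -0.55 and 0.11 in vehicle samples. SKI606 sample 2, with the mitotic genes at -0.05, had fibroblast markers above every vehicle sample. It also had high adipocyte and skeletal muscle markers, given below. The 12 endothelial markers stood at 1.14, 0.31, 0.31 and 0.90 in SKI606 samples, against 0.37, -0.15, -0.26 and 0.12 in vehicle samples. The 12 T and NK cell markers stood at 0.69, 0.52, 0.39 and 0.82 in SKI606 samples, all above the vehicle samples, at -0.08, 0.23, -0.22 and 0.09. The luminal markers stood at 0.03 and -0.03 in SKI606 samples 1 and 4. The mean log2 level of the fibroblast list was 9.67 to 10.93 in SKI606 samples and 9.25 to 9.78 in vehicle samples. That of the macrophage list was 8.16 to 9.26 in SKI606 and 7.53 to 8.45 in vehicle samples, that of the endothelial list 6.72 to 7.59 in SKI606 and 6.21 to 6.81 in vehicle samples, and that of the T and NK cell list 5.43 to 5.87 in SKI606 and 4.85 to 5.31 in vehicle samples, without overlap, with Cd3d, Cd2, Cd5, Cd8b1 and Cd4 near the floor. All 14 fibroblast, 14 macrophage, 12 endothelial and 12 T and NK cell markers lay above 0, and 0 of them passed over all probes. Their part in the lower mitotic signals was not tested. Squamous keratin markers had mean levels of 5.52 to 9.19 in SKI606 and 5.93 to 9.01 in vehicle samples. They were high in SKI606 samples 1 and 4, at deviations of 1.92 and 2.04, but also in vehicle sample 3, at 1.72, the sample that held the highest value of 23 of the 50 mitotic genes. Hair keratin markers had deviations of 4.14, -0.95, -1.06 and 4.88 in SKI606 samples 1 to 4, against -0.95, -0.89, 2.39 and -0.70 in vehicle samples, so they too were high in SKI606 samples 1 and 4 and in vehicle sample 3. Their part in the lower mitotic signals was likewise not tested. The lists of B cells, adipocytes and skeletal muscle had median log2 fold changes of -0.03, 0.40 and 0.27, with mean levels that overlapped between groups. Adipocyte markers had deviations of -0.23, 2.04, -0.68 and 0.30 in SKI606 samples 1 to 4, against 0.55, -1.14, -0.52 and 0.86 in vehicle samples. Skeletal muscle markers had 2.07, 3.46, -1.75 and -2.38 in SKI606 samples, against 3.80, -2.14, 0.03 and -1.45 in vehicle samples. The part of these lists was not tested either.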

How the data were processed

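The authors deposited 1 table of linear ratios for 8 arrays, and the sources used here name neither the software nor the normalization behind it; labelling followed Affymetrix, per the labels' protocols. The values showed how they were made. In 26196 of 45101 probes the median over arrays was 1, and in the others the values of an array came in steps of 1 size, as dividing whole-number signals by array and then probe medians gives. These signals were recovered as the smallest whole numbers that return the ratios, which they did for 100.0% of probes within a relative 0.0001. On 5000 simulated probes, made by varying the recovered signals, 99.84% were recovered exactly. How the rest differed was not examined. Recovered array medians were 15 to 23, while array means without the extreme probes were 99.82 to 99.84.

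Signals were quantile normalized, 16 was added and log2 taken. limma 3.58.1 (lmFit, eBayes; R 4.3.3) was fitted on 45037 probes without 64 control probes, with Benjamini-Hochberg adjustment at 0.05; it was tested on simulated data. Probe names came from the platform annotation (34945 probes with 1 symbol, 932 with several, 9160 unnamed here). A gene is its 1-symbol probe of highest mean, and all 50 members matched. Per role, the 2 members of smallest and the 1 of largest unadjusted p, and those without overlap, are given in every sample. The members and lists were chosen with earlier results of these data known. Alternatives were other pseudocounts (4 and 64), scaling to a common median, log2 of the deposited ratios, a minimum mean signal of 50, the mean of all probes of a gene, array weights, a replicate block and leaving out samples. The number of arrays limits the precision.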

Additional observations from a re-analysis of the deposited data

Results flagged for a closer look

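Among 80 groups of 4 values examined, 3 had 1 sample far from the others, where chance gives about 1 in 20. Kifc1 in SKI606 samples had sample 3 at a signal of 75.4, apart from the other SKI606 samples by 0.881 of the range on the log2 scale. Foxm1 in SKI606 samples had sample 4 at a signal of 38.9, apart by 0.867 of the range on the log2 scale. The median log2 level of hair keratin markers in vehicle samples had sample 3 at 7.80, apart by 0.929 of the range.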

How the results depend on the processing

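In every setting tried limma called 0 of all probes and 0 members, and the adjusted p of the members shown in every sample ranged from 0.295 to 0.99988. The median of the 50 members, -0.52, stayed below 0 in every setting, at -0.28 with arrays scaled to a common median, -0.33 with a pseudocount of 64, from -0.74 to -0.38 leaving out 1 sample at a time, and was -0.057 without SKI606 samples 1 and 4 and vehicle sample 3, with 32 below 0 and 27 with the wider spread in SKI606 (44 with all samples, 37 to 44 leaving out 1). Without SKI606 samples 1 and 4, chosen after seeing the data, 33 lay below 0 and 24 were wider. Of all genes 49.2% lay below 0 in that setting, and 49.4% without vehicle sample 3 as well. Spread counts with samples left out set SDs over unequal numbers of samples beside each other, with no share over all genes. Scaling arrays to a common median moved the median of all genes by 0.12, and the log2 of the deposited ratios by 0.18. The median of all genes was then 0.10 and 0.16, so values just above 0 in these settings are near it. Relative to all genes the members stood at -0.38 and -0.59, against -0.50 with quantile normalization. Members without overlap numbered 0 in both of these settings, 6 with the mean of all probes, and 2 to 13 leaving out 1 sample. Shares of all genes without overlap are not given for these settings, so these numbers have no background beside them. The number at an unadjusted p under 0.05, 17, was 11 with a pseudocount of 4, 1 with the common median, 0 with the deposited ratios and 0 without the 2 or 3 samples. Over all probes, in either direction, the number was 3771 in the main setting. In the other settings, in the same order, it was 3372, 4147, 3190, and 1770 or 1786. The cause was not tested. Same-numbered samples were not more alike than others. Correlations of deviations ran from -0.15 to 0.11 between same-numbered samples and from -0.23 to 0.19 between the others. These correlations cannot show that the samples were unpaired. With the replicate block 26 members were at an unadjusted p under 0.05, beside 3856 of all probes in either direction, and 0 passed. Among the members shown in every sample, turned above 0 were Bub3 with the common median (0.12), the deposited ratios (0.13), without SKI606 samples 1 and 4 (0.11) and without these and vehicle sample 3 (0.21), and Kif18a with the mean of all probes (0.029). In the last 2 of the Bub3 settings the others of these that turned were Nek2 (0.0037 and 0.16), Aurkb (0.049 and 0.030), Birc5 (0.36 and 0.36), Nuf2 (0.052 and 0.040), Kif18a (0.20 and 0.13), Anln (0.19 and 0.29) and Smc2 (0.15 and 0.084). Members outside that selection above 0 were Kif4 (0.099) and Zwilch (0.0028) with the common median, Kif4 (0.13) with the deposited ratios, and, in both of the last 2 settings, Zwilch, Cenpk, Plk4, Bub1, Hmmr, Cenpf, Cenpe, Incenp and Top2a, with Kif4 also in the second of them, and Zwilch (0.054) without SKI606 sample 1. Leaving out 1 sample gave ranges of -0.20 to 0.0048 for Bub3, -0.26 to 0.062 for Nuf2, -0.41 to 0.13 for Kif18a, -0.84 to 0.023 for Birc5, -0.47 to -0.091 for Nek2, -0.70 to -0.24 for Aurkb, -0.68 to -0.064 for Anln and -1.02 to -0.21 for Smc2. Of the members, 8 had a mean signal under 50, where the added 16 limits what can be seen.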
